A study of Mus musculus with 8 samples.

Results

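Annexins are proteins that bind acidic phospholipids of membranes when calcium is present. Each has a conserved core of annexin repeats and a variable head at its amino end, through which it binds partners such as S100 proteins. Annexin proteins are common in exosome preparations, where they lie on the vesicle membrane. Whether the messenger RNAs for these proteins were measurable in exosome RNA, and how their signals compared with those of the parent cells, was asked here of 8 genes, Anxa1, Anxa2, Anxa3, Anxa4, Anxa5, Anxa6, Anxa7 and Anxa11. Every probe set annotated to one of them was taken, which gave 18 of the 45101 probe sets of the array. Of these, 17 carry a single gene symbol. The probe set for Anxa11 is listed together with Gm2260 and Gm2274, which the RefSeq table calls transcribed pseudogenes and places on chromosome 14, as it does Anxa11, so its values cannot be assigned to Anxa11 alone.

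The samples were 4 preparations of exosome RNA and 4 of whole-cell RNA from MC/9, a mouse mast cell line. Neither group has a labelled treatment. The medium held bovine serum and a supplement from rat T cells, whose RNA the pellets may contain. Exosomes are small vesicles shed by cells, and here they were pelleted from filtered culture supernatant by ultracentrifugation. Replicates 1 and 2 of both groups were hybridised on one day (batch 1) and replicates 3 and 4 on another (batch 2). The replicates are labelled biological. Whether each came from a culture of its own is not stated in what was used here, and the p-values may then describe only technical spread. Each array received the RNA of a whole pellet or culture, so fewer cells or vesicles with a transcript and less of it in each cannot be told apart.

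Signals are the deposited intensities, scaled by the authors to the same trimmed mean on every array. A detection floor was set on each array at the 95th percentile of 150 probe sets for genes such as olfactory and taste receptors. A probe set was taken as detected on an array where its signal exceeded that floor. The floor was 282 ± 38.8 for exosomes and 13.2 ± 2.54 for cells (SD, n = 4). Exosome arrays had 6.10% ± 2.12 of probe sets above it and cell arrays 47.5% ± 2.13 (SD, n = 4). The log2 signals of the bacterial hybridisation controls exceeded those on cell arrays by 4.51, with 4.44 in batch 1 and 4.58 in batch 2, and the median of the background list was 69.4 ± 4.35 on exosome and 2.42 ± 0.459 on cell arrays (SD, n = 4). Of 11 mast cell markers, 10 were detected on all cell arrays, among them Kit, Fcer1a and Cpa3, and none was detected on all exosome arrays. On no exosome array were 6 of the 11 detected. The others were detected on at least 1, as were 14.3% of all probe sets that are not controls. The summed signal of the mast cell markers was 44205 to 48951 on cell arrays and 1487 to 2188 on exosome arrays. No marker of T cells, B cells, neutrophils or fibroblasts was detected on all cell arrays, while 2 of 5 macrophage markers (Csf1r and Cd14) and 3 of 4 platelet markers (Pf4, Itga2b and Gp9) were. Their part in the annexin values was not tested. Summed over each list, cell arrays gave 82.8 to 97.9 for macrophage and 1856 to 2727 for platelet markers. No T cell, macrophage, neutrophil or erythroid marker was detected on any exosome array. The same held for 3 of 4 B cell, 4 of 5 fibroblast and 3 of 4 platelet markers, while the others were detected on at least 1.

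The bases before the annotated starts of Anxa1, Anxa2 and Anxa5 are shown as examples. The cell arrays detected Anxa1 and Anxa5 throughout and Anxa2 on 3 of 4 arrays. Anxa4, Anxa6, Anxa7 and the probe set shared by Anxa11 were also detected throughout, but no bases are printed for them. Sequences are from RefSeq, GRCm38.p6, and end at the base before the start. Capitals mark the motif TATAAA (bound by the TATA-binding protein), the motif GGGCGG (a GC box) and the motif TGANTCA (an AP-1 type element), each searched on both strands.
Anxa1: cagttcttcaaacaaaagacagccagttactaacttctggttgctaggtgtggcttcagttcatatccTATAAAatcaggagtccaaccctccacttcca
Anxa2: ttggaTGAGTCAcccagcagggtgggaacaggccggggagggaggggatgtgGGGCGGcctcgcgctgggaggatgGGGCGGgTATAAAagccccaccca
Anxa5: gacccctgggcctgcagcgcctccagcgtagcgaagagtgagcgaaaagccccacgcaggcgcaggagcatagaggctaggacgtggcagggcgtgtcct
The genes span chr19:20373434-20390671 for Anxa1, chr9:69453683-69491792 for Anxa2 and chr3:36448923-36475887 for Anxa5. The Anxa1 stretch is chr19:20390672-20390771 on the minus strand, that of Anxa2 is chr9:69453583-69453682 on the plus strand and that of Anxa5 is chr3:36475888-36475987 on the minus strand. The RefSeq table used here held windows for 6 of the 8 genes, 8 windows in all. Within 250 bases before the start, TATAAA occurred in 2 of the 8 windows, those of Anxa1 and Anxa2, and in 12.4% of the 32851 windows of all genes. GGGCGG occurred in 4 of the 8, those of Anxa2, Anxa7 and Anxa11, and in 32.7% of all windows. TGANTCA occurred in that of Anxa2 alone and in 6.75% of all. In the printed Anxa2 stretch TATAAA starts 17 bases before the start and in that of Anxa1 32 bases before it, and no motif there overlaps another. A match is a description of these letters only, and nothing on the arrays measured the promoters.

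No annexin transcript was detected in exosome RNA, while probe sets of 6 of the 8 genes were detected on all cell arrays. None of the 18 annexin probe sets was detected on any exosome array, which is 0 of 72 values. With a floor from olfactory receptors alone, 1 was detected on at least 1 exosome array. Of all 45037 probe sets that are not controls, 14.3% were detected on at least 1 exosome array and 1.44% on all 4. Most probe sets were thus likewise undetected there. In the cells 13 annexin probe sets were detected on all 4 arrays, for Anxa1, Anxa4, Anxa5, Anxa6, Anxa7 and the probe set shared by Anxa11, against 40.1% of all probe sets. Among the probe sets detected on all cell arrays, 18.4% were detected on at least 1 exosome array and 0 of these 13 annexin probe sets were. A transcript whose exosome signal lay under about 282 on the deposited scaling was not detectable there, so these values do not show absence.

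**Figure D1:**
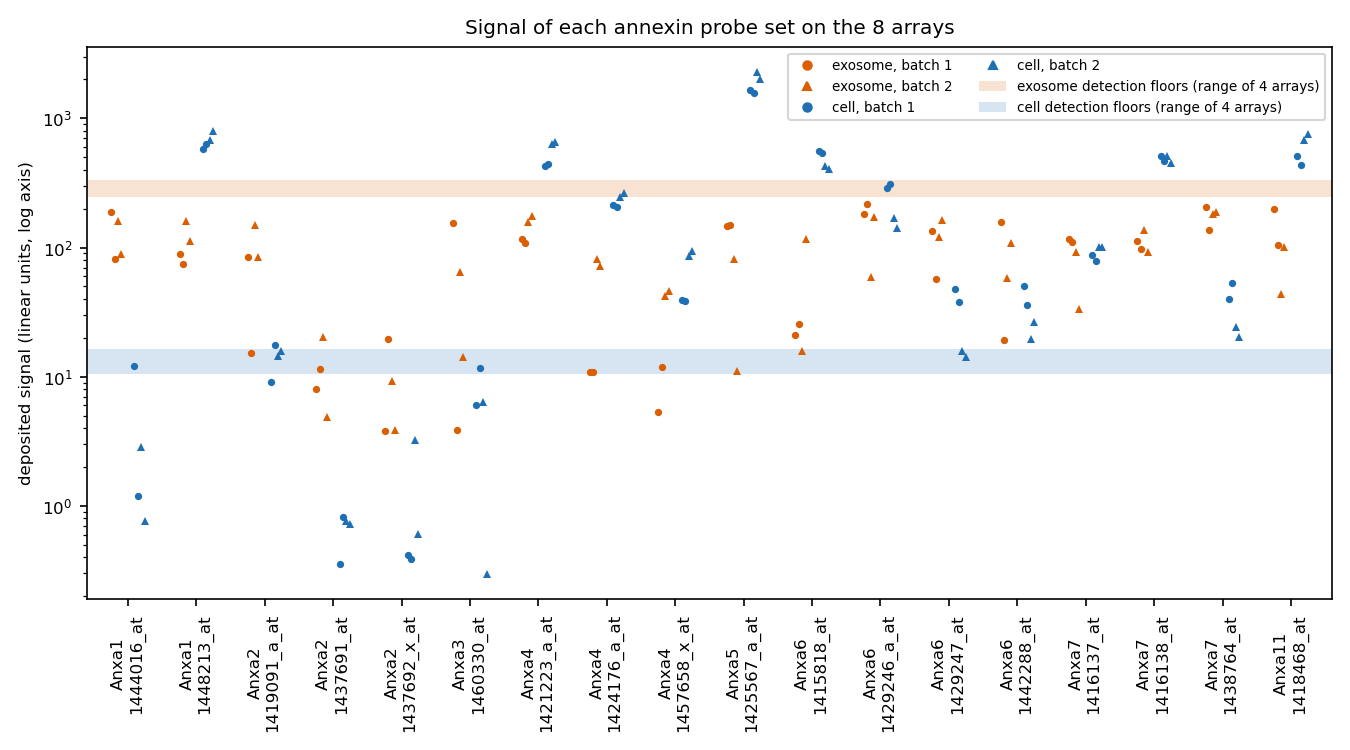
Deposited signal (log axis, linear units) of each of the 18 annexin probe sets on the 4 exosome arrays (orange) and the 4 cell arrays (blue), with circles for batch 1, triangles for batch 2 and bands for the range of the detection floors of each group. All orange points lie below the orange band, while the blue points of 13 probe sets lie above the floor of their own array throughout.

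The position of a signal among the background-list probe sets of its own array does not depend on scaling. On exosome arrays the annexin values had between 1.33% and 92.7% of the background list below them, with a median of 57.3%, and 44 of the 72 values had over 50 percent of the list below them. The highest was probe set 1429246_a_at of Anxa6 on exosome replicate 2. In the cells 48 annexin values had at least 99 percent of the list below them.

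**Figure D2:**
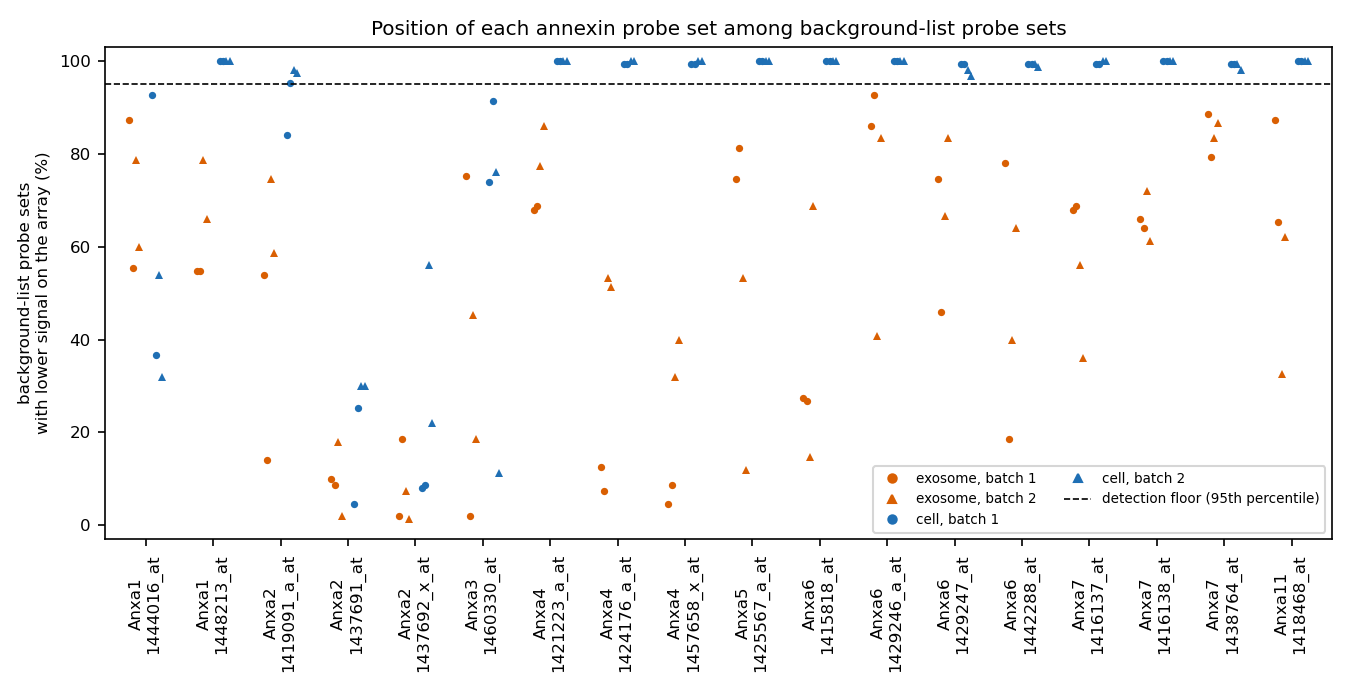
Share of the 150 background-list probe sets (%) with a lower signal than the annexin probe set on the same array, for exosome (orange) and cell (blue) arrays, with circles for batch 1, triangles for batch 2 and the detection floor dashed at 95. Exosome values spread from 1.33% to 92.7%, all under the dashed line.

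Anxa1, which is induced by glucocorticoids, limits inflammation through formyl peptide receptors and was first known as an inhibitor of phospholipase, was well above the floor in the cells. Its probe set 1448213_at read 580, 634, 675 and 802 on cell replicates 1 to 4 and 88.5, 75.1, 162 and 112 on exosome replicates 1 to 4. The groups did not overlap, and every exosome value lay under its floor. The difference on the log2(signal + 4) scale was -2.62 ± 0.33 (SE, n = 4 and 4; limma, adjusted p = 7.6e-05), a fall that was 2.38-fold at least when exosome signals are taken at the floor. Within batches the differences were -2.83 in batch 1 and -2.41 in batch 2. The other Anxa1 probe set, 1444016_at, was detected on no array of either group, with 0.770 to 12.1 in cells and 81.3 to 188 in exosomes, and was not tested.

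Anxa5, which binds phosphatidylserine on exposed membranes and is used as a probe for dying cells, was detected on every cell array. Probe set 1425567_a_at read 1666, 1564, 2281 and 2003 on the cell arrays and 147, 150, 81.4 and 11.01 on the exosome arrays. The cell values were all above the exosome floor and the exosome values all under it. The difference was -4.65 ± 0.65 (SE, n = 4 and 4; limma, adjusted p = 0.000163), and Anxa5 was at least 6.62-fold lower in exosomes. It was -3.41 within batch 1, -5.90 within batch 2 and -3.89 without exosome replicate 4.

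Anxa4, a calcium-dependent membrane binder of secretory epithelia, had 3 probe sets, all detected on every cell array. Probe set 1421223_a_at read 427, 447, 635 and 659 in cells and 117, 109, 158 and 177 in exosomes, with no overlap. It fell by 1.92 ± 0.32 on the log2 scale (SE, n = 4 and 4; limma, adjusted p = 0.000479) with a bound of at least 1.90-fold. Probe set 1424176_a_at read 213, 207, 247 and 264 in cells and 10.9, 10.9, 81.9 and 72.5 in exosomes. It fell by 2.76 ± 0.63 (SE; limma, adjusted p = 0.00362), but its cell signals did not exceed the exosome floor by geometric mean, so no bound can be given. Both falls were lost with arrays scaled to the median of the probe sets detected on all 8 arrays, where they were -0.89 and -1.77 (limma, adjusted p = 0.066 and 0.067). The third, 1457658_x_at, whose suffix marks probes that can match other transcripts, read 38.4 to 93.9 in cells and 5.32 to 46.4 in exosomes and did not pass (-1.39 ± 0.64 (SE); limma, adjusted p = 0.087), but with batch as a block it was called lower (limma, adjusted p = 0.018).

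Anxa6, which carries a duplicated core and links membranes to actin and cholesterol, had 4 probe sets with different calls. Probe set 1415818_at read 560, 541, 426 and 402 in cells and 21.0, 25.4, 15.7 and 116 in exosomes. It fell by 3.73 ± 0.54 (SE, n = 4 and 4; limma, adjusted p = 0.000216), with no overlap and a bound of at least 1.70-fold. In batch 2 alone it was -3.11 and missed the threshold (limma, adjusted p = 0.051). Probe set 1429246_a_at read 288, 309, 171 and 141 in cells against 182, 216, 59.2 and 173 in exosomes, which overlapped (-0.58 ± 0.47 (SE); limma, adjusted p = 0.31). Probe set 1429247_at had 14.3 to 47.8 in cells and 56.9 to 163 in exosomes, and 1442288_at had 19.5 to 50.7 and 19.2 to 158. The first of these was called higher in exosomes (1.95 ± 0.52 (SE); limma, adjusted p = 0.0088) and the second was not called (1.02 ± 0.63 (SE); limma, adjusted p = 0.19), and both lay under the floor on every exosome array. The higher call of 1429247_at was 2.93 within batch 2 and was lost within batch 1 (0.98; limma, adjusted p = 0.24), under quantile normalization (0.17; limma, adjusted p = 0.79) and after background subtraction (0.33; limma, adjusted p = 0.80).

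Anxa7, also called synexin, which promotes membrane fusion and binds sorcin, also had different calls by probe set. Probe set 1416138_at read 515, 468, 513 and 449 in cells and 112, 97.1, 136 and 91.9 in exosomes. It fell by 2.13 ± 0.29 (SE, n = 4 and 4; limma, adjusted p = 0.000141) with a bound of at least 1.73-fold, and was -2.19 within batch 1 and -2.06 within batch 2. Probe set 1416137_at overlapped between groups, at 78.9 to 102 in cells and 33.2 to 117 in exosomes (-0.20 ± 0.46 (SE); limma, adjusted p = 0.73). Probe set 1438764_at read 40.1, 52.9, 24.4 and 20.3 in cells and 207, 136, 181 and 187 in exosomes, and was called higher there (2.31 ± 0.42 (SE); limma, adjusted p = 0.000885) although each exosome value was under its floor. That call was lost under quantile normalization (1.09; limma, adjusted p = 0.054). The genes with the pattern most like that of 1438764_at, by root mean square difference of centred log2(signal + 4) over the 8 arrays, were Gmps at 0.170, Rad52 at 0.175 and Myl6b at 0.196, all of them detected on no exosome array.

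The probe set shared by Anxa11 and 2 pseudogenes, 1418468_at, read 516, 433, 683 and 758 in cells and 199, 105, 43.9 and 100.2 in exosomes. Anxa11 has a long, disordered head that binds the calcium sensor Pdcd6 and, in neurons, tethers RNA granules to lysosomes. The groups did not overlap and the difference was -2.52 ± 0.44 (SE, n = 4 and 4; limma, adjusted p = 0.000708), at least 2.08-fold lower in exosomes. It was -1.68 within batch 1 and -3.36 within batch 2.

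Anxa2 and Anxa3 gave little or no signal in the cells. Anxa2, which forms a tetramer with S100a10 and bridges membranes to actin, had 3 probe sets. The one detected in cells, 1419091_a_at, read 9.03, 17.5, 14.5 and 15.9 on cell replicates 1 to 4, where the floors were 13.5, 16.5, 10.5 and 12.2, so 3 of the 4 values lay just above the floor. On exosome arrays it read 84.0, 15.3, 148 and 84.4, which overlapped the cell values and lay under every exosome floor. It was called higher in exosomes (1.95 ± 0.63 (SE); limma, adjusted p = 0.022), a call that was lost without exosome replicate 3 (limma, adjusted p = 0.053), without cell replicate 1 (0.065) or cell replicate 3 (0.051), and within batch 1 (limma, adjusted p = 0.30). The other Anxa2 probe sets, 1437691_at and 1437692_x_at, read at most 3.23 in cells and at most 20.5 in exosomes. Anxa3, known from neutrophil granules, had 1 probe set, 1460330_at, with 0.296 to 11.7 in cells and 3.86 to 154 in exosomes, detected on no array. None of these 3 was tested. Of the 4 untested annexin probe sets, 3 had every exosome value above every cell value, those of Anxa1 and Anxa2, as did 77.7% of all untested probe sets, and all lay under the floors.

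Of the 14 annexin probe sets tested, 7 were lower in exosomes, 3 were called higher and 4 did not pass (limma, adjusted p under 0.05). Over all 20219 tested probe sets 37.5% were lower and 17.9% were higher, and the median difference was -0.69 against -1.65 over the annexin probe sets. All 14 entered the test through the cell arrays, so these counts describe them and support nothing further. Groups did not overlap for the 7 lower probe sets, where 37.2% of tested probe sets did the same, and for 2 of those called higher, where 16.4% did. The 3 called higher nevertheless ranked lower among the background list on every exosome array than on any cell array. The share of the list below Anxa2 1419091_a_at was 14.0% to 74.7% in exosomes and 84.0% to 98.0% in cells. It was 46.0% to 83.3% and 96.7% to 99.3% for Anxa6 1429247_at, and 79.3% to 88.7% and 98.0% to 99.3% for Anxa7 1438764_at.

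The 7 falls kept their direction under quantile normalization, background subtraction, both control scalings and scaling to shared probe sets, while the 3 higher calls turned under both control scalings and that of Anxa2 also under quantile normalization. With arrays scaled to the hybridisation controls all 14 were lower and none was higher, when 94.3% of all tested probe sets were lower, 1.25% were higher and the median difference of all was -4.72. The counts were 11 lower and 0 higher with the poly-A controls, 8 and 0 with quantile normalization, 8 and 1 after subtracting the background median and 5 and 4 with the median of the probe sets detected on all 8 arrays. The medians of all tested probe sets were -3.90, -1.51, -2.50 and 0.29 in that order. Scaled to the hybridisation controls, Anxa2 1419091_a_at gave -1.95, Anxa6 1429247_at -2.20 and Anxa7 1438764_at -1.94. The bounds depend on the scaling too: Anxa5 was at least 6.62-fold lower on the deposited scaling and at least 151-fold lower with the hybridisation controls, and Anxa1 at least 2.38-fold and at least 54.2-fold. With the median of the probe sets detected on all 8 arrays the bounds were 3.21-fold for Anxa5, 1.15-fold for Anxa1 and 1.01-fold for the probe set shared by Anxa11, and no bound could be given for Anxa4 1421223_a_at, Anxa6 1415818_at or Anxa7 1416138_at.

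**Figure D3:**
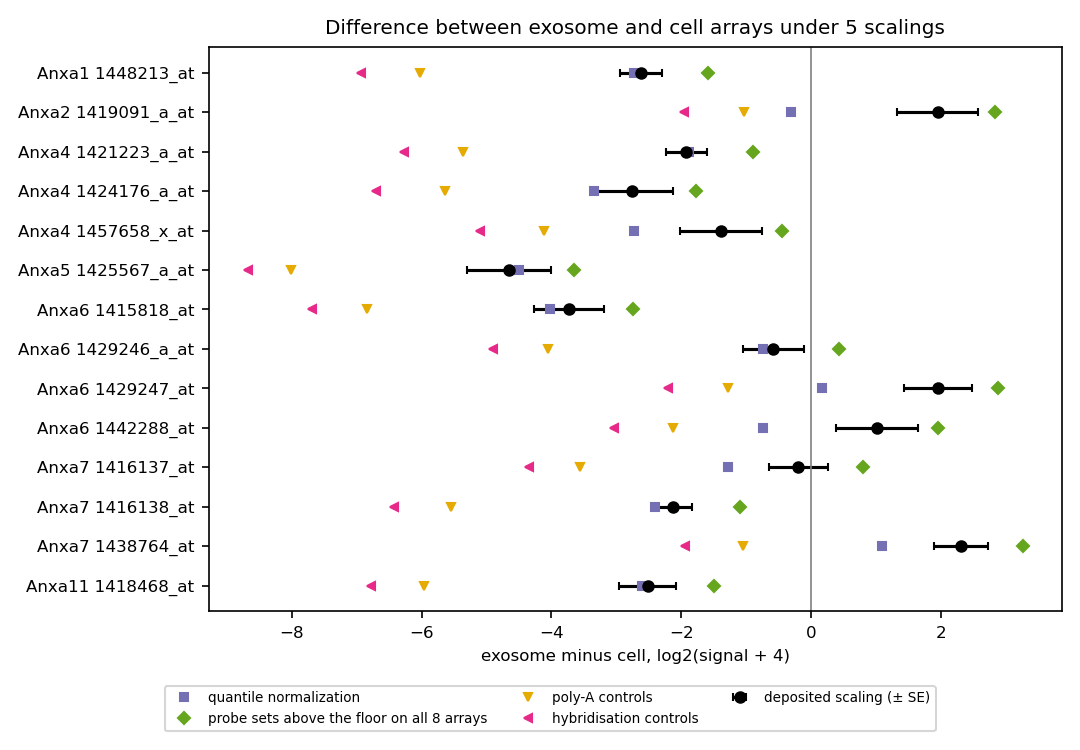
Exosome minus cell difference (log2 of signal + 4) of the 14 tested annexin probe sets, with the deposited scaling (black, ± SE) and 4 other scalings. The 7 probe sets called lower lie left of 0 under all 5 scalings, while Anxa2 1419091_a_at, Anxa6 1429247_at and Anxa7 1438764_at move from right to left of it with the control-based scalings.

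Among the cell arrays most annexin probe sets differed between the hybridisation batches, as did most of all probe sets detected there. Of the 13 probe sets detected on all cell arrays, 12 had no overlap between batches, 7 of them higher in batch 2 and 5 higher in batch 1. Over all probe sets detected on all cell arrays these shares were 30.9% and 40.5%. The 13 probe sets belong to 6 genes, so they are not separate observations. All 4 Anxa6 probe sets were higher in batch 1, by 1.33-fold for 1415818_at, 1.92-fold for 1429246_a_at, 2.85-fold for 1429247_at and 1.88-fold for 1442288_at. All 3 Anxa4 probe sets were higher in batch 2, by 1.48-fold for 1421223_a_at, 1.22-fold for 1424176_a_at and 2.31-fold for 1457658_x_at. Anxa1, Anxa5 and the probe set shared by Anxa11 were higher in batch 2 by 1.22-fold, 1.33-fold and 1.52-fold. Of the Anxa7 probe sets, 1416138_at overlapped, at 491 in batch 1 and 481 in batch 2, 1416137_at was 1.21-fold higher in batch 2 and 1438764_at was 2.08-fold higher in batch 1. With 2 arrays a batch these are values with no test, and culture and hybridisation day cannot be told apart.

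Genes of related families, binding partners and membrane processes were counted in 6 lists, called partner lists here. A place in a list does not imply that a gene works with annexins. In these lists 33 genes were tested. Of these, 32 were detected on all cell arrays and Mertk on exosome arrays only, so the filter favours falls in the former and a rise in the latter, and the counts below are descriptions. Over all tested probe sets 37.5% were lower, 17.9% were higher and the median was -0.69. Bounds for these genes use the deposited scaling and depend on it. Scaled to the median of the probe sets detected on all 8 arrays, the Anxa1 bound went from 2.38-fold to 1.15-fold. Small bounds of partner genes may therefore not hold under that scaling. Some S100 and penta-EF-hand proteins bind annexin heads. Their list also holds Ahnak, a protein of neither family, which is among the falls counted. In that list 11 of the 16 genes on the array with a single symbol were tested, 10 fell and none rose, with a median of -3.68. S100a10, the partner of Anxa2, read 1908 ± 147 in cells and 20.7 ± 8.16 in exosomes (SD, n = 4). It fell by 6.32 (limma, adjusted p = 7.1e-07), at least 6.79-fold. Sri, the sorcin that binds Anxa7, read 1206 ± 387 in cells and 29.8 ± 33.6 in exosomes (SD, n = 4), and fell by 5.63 (limma, adjusted p = 3.9e-05). S100a11, the partner of Anxa1, has no probe set with a single symbol and is not analysed here.

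Of the formyl peptide receptors and the cytosolic phospholipase, through which Anxa1 acts or which it was held to inhibit, 2 of 4 genes were on the array with a single symbol. Fpr2 was detected on no array. Pla2g4a, the phospholipase that releases arachidonic acid, read 429 ± 53.2 in cells and 69.9 ± 51.6 in exosomes (SD, n = 4). It fell by 3.15 (limma, adjusted p = 0.0057) with a bound of at least 1.52-fold. Of the 4 other annexin genes, Anxa8, Anxa10 and Anxa13 were detected on no array. Anxa9 was detected on all cell arrays at 24.7 ± 2.17 and on no exosome array at 99.6 ± 69.6 (SD, n = 4), and did not pass (1.38; limma, adjusted p = 0.13).

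Copines are a separate family of calcium-dependent phospholipid binders. Of 9 copine genes 4 were tested, 3 fell and 1 rose, with a median of -2.40. Cpne3 read 969 ± 38.7 in cells and 102 ± 109 in exosomes (SD, n = 4) and fell by 4.22, and Cpne2 fell by 2.59 (limma, adjusted p = 0.0021 and 0.0052). Cpne3 was at least 3.45-fold lower, while the cell signal of Cpne2, with a mean of 154, lay under the exosome floor, so no bound can be given for it. Cpne5 read 32.5 ± 10.8 in cells and 313 ± 125 in exosomes (SD, n = 4). It rose by 3.06 (limma, adjusted p = 0.00026) and was detected on 3 exosome arrays. Scaling by the hybridisation controls turned its difference to -1.23.

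Among 17 genes on the array that expose or bind phosphatidylserine, the lipid that Anxa5 binds, 12 were tested, 6 fell and 2 rose, with a median of -1.65. Plscr1, a scramblase, fell by 3.87 and was at least 2.42-fold lower, and Tmem30a, the subunit that flippases need, fell by 3.52 and was at least 2.18-fold lower (limma, adjusted p = 9.6e-05 and 0.0021). Mertk, a receptor that takes up cells marked by phosphatidylserine, entered the test through the exosome arrays alone and rose by 5.97. That filter favoured its call, so the rise is a description and no p-value is given. It read 330 ± 106 in exosomes, detected on 3 arrays, and 1.18 ± 0.802 in cells (SD, n = 4), detected on none, a rise of at least 24.4-fold with the deposited scaling. With arrays scaled to the hybridisation controls the difference was 2.97. This value rests on cell signals under the floor. Those controls were 22.7-fold brighter on exosome arrays, so that scaling takes away nearly all of the 24.4-fold bound. Plscr3 rose by 1.65 (limma, adjusted p = 0.0031), was detected on 1 exosome array and turned to -2.66 with the hybridisation controls.

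Of 10 genes for membrane repair and calcium-dependent fusion, 4 were tested, 3 fell and none rose, with a median of -2.93. Esyt1, a tether between the endoplasmic reticulum and the plasma membrane, read 1857 to 2107 in cells and 129 to 154 in exosomes. It fell by 3.80 (limma, adjusted p = 1.9e-06), at least 6.999-fold, and Esyt2 fell by 3.58 (limma, adjusted p = 0.00066). Over the 6 lists 23 of the 33 tested genes fell and 3 rose, with a median of -2.59. None of the 58 genes on the array was detected on all exosome arrays, where 1.44% of all probe sets were. Of the 58, 50 were detected on no exosome array and the others on at least 1, as were 14.3% of all probe sets.

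**Figure D4:**
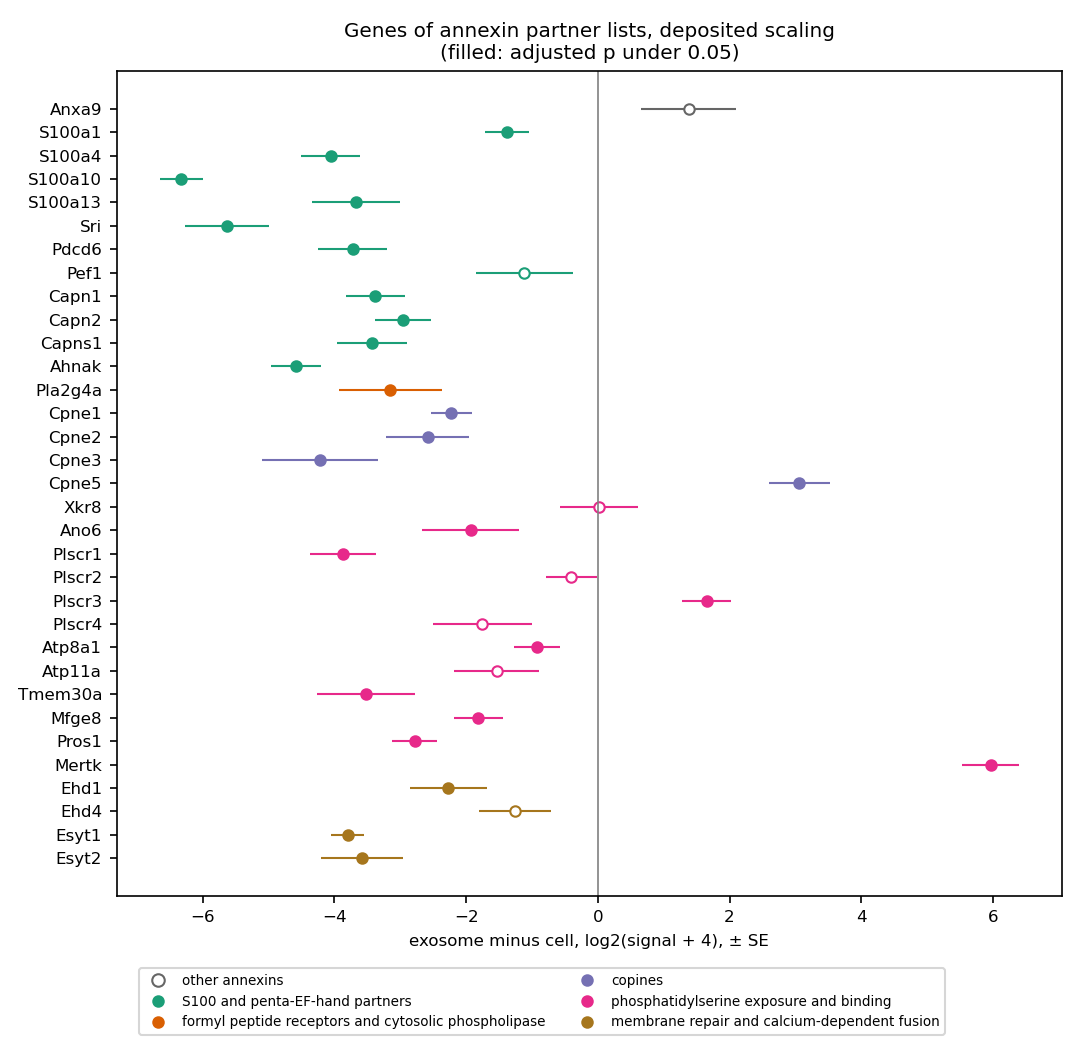
Exosome minus cell difference (log2 of signal + 4, ± SE, deposited scaling) of the 33 tested genes of the 6 annexin partner lists, coloured by list, with filled points for adjusted p under 0.05. Most points lie left of 0, with S100a10 farthest left at -6.32, and the filled points right of 0 are Mertk, Cpne5 and Plscr3.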

How the data were processed

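Intensity values per probe set, deposited by the authors on a linear scale, were used. The submitters' processing notes name GCOS, software of the array's maker. How probes were summarised and background treated is not given in the sources used here. Every array has a 2% trimmed mean of 100, which is a global scaling. The experiment files deposited with the arrays hold other values, settings of the instrument, and gave the hybridisation batches, per the file headers. Of 45101 probe sets, 64 controls were left out of tests, and 34945 have 1 gene symbol, 932 several and 9160 none. Names come from the platform annotation and RefSeq (GRCm38.p6).

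A probe set was tested if detected on at least 3 arrays of a group (20219). Values of log2(signal + 4), with pseudocount 4, went into limma 3.58.1 (R 4.3.3; lmFit, then eBayes with trend), Benjamini-Hochberg adjustment over all tested probe sets and a threshold of 0.05. The fit was tested on simulated data that gave both groups the same spread, so that test does not cover groups of unequal spread. Spread relative to the mean was unequal for some probe sets. Anxa5 read 97.4 ± 65.7 in exosomes and 1878 ± 327 in cells (SD, n = 4). For Anxa6 1429247_at it was larger in cells, at 28.9 ± 16.6 against 119 ± 45.0 in exosomes (SD, n = 4). A fold against a group detected on no array is a bound, in which each array of that group enters at its floor or, if higher, its signal, and groups enter by geometric means. A partner gene was represented by its probe set of highest mean signal across arrays. Precision is limited by the number of arrays.

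Annexins and partner lists were chosen with earlier results of these data known. Named were all annexin probe sets, up to 2 falls and 2 rises a list, S100a10, S100a11 and the 3 genes most like one annexin probe set. Same-numbered arrays did not deviate together (r = -0.074 to 0.008), and the numbers were not taken as pairs. Exosome arrays had 6.10% of probe sets above the floor on average, so this check could miss a pairing.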

Additional observations from a re-analysis of the deposited data

Results flagged for a closer look

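Of 36 groups of 4 values (18 annexin probe sets in exosomes and in cells), 2 held a value far from the other 3, and chance alone gives about 1 in 20. Anxa6 1415818_at read 116 on exosome replicate 4 against 15.7 to 25.4 on the other exosome arrays. Its fall kept its direction and passed without any 1 array. Anxa2 1437692_x_at read 3.23 on cell replicate 3 against 0.390 to 0.609 on the other cell arrays, all of them under the floor.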

How the results depend on the processing

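Exosome signals under the floor give bounds only. Annexin probe sets above the floor on at least 1 exosome array went from 0 to 1 with a floor from olfactory receptors alone. The falls of Anxa1, Anxa5, Anxa7 1416138_at and the probe set shared by Anxa11 passed under all alternatives tried. Annexin probe sets called lower were 14 with the hybridisation controls, 11 with the poly-A controls and 7 to 8 with 1 array left out. Those called higher, 3 as reported, were 0 with both controls and with quantile normalization, 1 after background subtraction, with a floor at the 99th percentile and within batch 1, 6 with low signals set to the floor and with no filter, and 2 to 4 with 1 array left out. Partner genes called higher, 3 as reported, were 1 with either control, 12 with low signals set to the floor and 27 with no filter. They were 2 when the probe set of each gene was chosen by its mean over the cell arrays. Partner genes called lower, 23 as reported, were 32 with the hybridisation controls and 30 with the poly-A controls. They were 17 with the median of the probe sets detected on all 8 arrays, with low signals set to the floor and within batch 1. Of all tested probe sets 7585 were lower and 3616 higher. These counts were 19060 and 253 with the hybridisation controls, 16458 and 295 with the poly-A controls, 4383 and 5795 with the median of the probe sets shared by both groups, those over the floor throughout, and 4125 and 13673 with low signals set to the floor. Higher calls were 1482 with quantile normalization, 1570 after background subtraction, 26587 with no filter and 1723 with the 99th percentile. With the mean in place of the median of the shared probe sets, chosen after seeing the data, 7 annexin probe sets were lower and 3 higher.

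Directions reversed as follows. With the hybridisation controls the values were -1.95 for Anxa2 1419091_a_at, -2.20 for Anxa6 1429247_at, -3.04 for Anxa6 1442288_at and -1.94 for Anxa7 1438764_at, and with the poly-A controls -1.03, -1.28, -2.13 and -1.05. Quantile normalization gave -0.32 for Anxa2 1419091_a_at and -0.74 for Anxa6 1442288_at, and background subtraction gave -1.06 for the latter. With low signals set to the floor, which raises exosome values above dim cell values by construction, Anxa4 1424176_a_at gave 0.27, Anxa4 1457658_x_at 2.17, Anxa6 1429246_a_at 0.37 and Anxa7 1416137_at 1.57. The median of the shared probe sets gave 0.43 for Anxa6 1429246_a_at and 0.80 for Anxa7 1416137_at, and the latter was 0.42 within batch 1 and between -0.37 and 0.19 with 1 array left out, positive only without exosome replicate 4. The causes of the other changes were not tested. The replicate block changed no annexin call, with 7 lower and 3 higher, and gave 7422 and 3342 over all. No exosome array correlated best with the cell array of its own number. Batch as a block added 1 lower call, Anxa4 1457658_x_at (limma, adjusted p = 0.018).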
